A study of Mus musculus with 56 samples.

Results

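The expression of 10 genes of bile acid synthesis and transport was followed in the livers of mice that lost miR-122, the dominant microRNA of hepatocytes. The 10 genes (Cyp7a1, Cyp8b1, Cyp27a1, Cyp7b1, Baat, Slc10a1, Abcb11, Abcc2, Nr1h4 and Nr0b2) were taken by their symbols from the 21888 gene symbols of the RNA-seq table, where each has a single row. All 14 RNA-seq libraries were used, each from 1 mouse on the 129Sv/J background. Mice with loxP sites around miR-122 were left uninjected (day 0, 3 mice) or received an adeno-associated virus vector, rAAV8-Ef1a-Cre, and were sampled 21 days (3 mice), 45 days (3 mice), 100 days (1 mouse) and 200 days (1 mouse) later. A further 3 mice were germline miR-122 knockouts, which are not described as floxed or injected and were compared with the uninjected floxed mice. Ef1a is a general promoter, so that Cre was not restricted to hepatocytes by its promoter, and no group received a control vector. The effects of the vector and of the loss of miR-122 therefore cannot be told apart. The only uninjected floxed mice are those of day 0, so that time after Cre and ageing cannot be told apart either. Age and sex are not given by the labels. Small RNA libraries of floxed mice were matched to these by group and replicate label. In them, miR-122 made up 59.2% to 73.3% of microRNA reads at day 0 and 8.22% to 13.2% at day 21. It made up 0.383% to 1.23% at day 45, 4.46% at day 100 and 19.1% at day 200. No small RNA library of the knockout livers was analysed here. Aldoa, a well-known target of miR-122, stood at 62.1 to 73.1 FPKM at day 0 and at 245 to 499.8 FPKM in the knockout.

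Bile acids are made from cholesterol in hepatocytes. Cyp7a1 opens the classic pathway, in which Cyp8b1 adds the hydroxyl group that sets apart cholic acid, and Cyp27a1 and Cyp7b1 form the alternative pathway. Baat joins the finished bile acids to taurine or glycine, Abcb11 (the bile salt export pump) and Abcc2 (which exports conjugated organic anions) empty into bile, and Slc10a1 takes returning bile acids up from blood. The nuclear receptor Nr1h4 (FXR) senses bile acids and induces Nr0b2 (SHP), which represses Cyp7a1 and Cyp8b1.

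Nuclear receptors commonly bind DNA repeats of the hexamer AGGTCA, and 4 of the member promoters hold it. RefSeq promoter sequences (assembly GRCm38.p6, 250 bases before to 50 bases after the start) were present for 7 of the 10 symbols, as 8 promoters. AGGTCA, searched on both strands, was found in 4 of these 8, against 16.3% of all 32851 promoters in the table. The 30 bases around each hexamer are shown 5′ to 3′ along the gene's strand. These 4 genes are the uptake carrier, both canalicular exporters and the bile acid receptor. Capitals mark the hexamer or its reverse complement, TGACCT. A match of letters is a description and not a binding site, and none of the measurements bears on binding.
Slc10a1 (chr12:80968149-80968178, minus strand, hexamer 87 bases before the start): cggcaggcacagAGGTCAgaaaacttaagc
Abcb11 (chr2:69342655-69342684, minus strand, 56 bases before the start): actttaggccatTGACCTataagcaaatag
Abcc2 (chr19:43782247-43782276, plus strand, 49 bases before the start): tgtcaggatgaaAGGTCAggagacttgcct
Nr1h4 (chr10:89506855-89506884, minus strand, 214 bases before the start): ccgtgtggcattTGACCTccagccagtctt

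Expression is given in FPKM, fragments per kilobase of transcript scaled to the upper quartile of each library, as the authors deposited it. The steps between low values place the number of fragments to which each library was scaled at about 34400000 to 54900000 in the floxed mice. In the knockout it was about 23500000 to 26700000. Because of the quartile scaling, these need not be the numbers of fragments sequenced. The counting error of each gene is not known from FPKM, and is relatively larger for low values. The 10 genes were abundant. Their mean over the 14 livers ranged from 41.0 FPKM for Nr0b2, above 92.4% of all symbols, to 369 FPKM for Slc10a1, above 99.1%. Differences between groups were tested on log2(FPKM + 1) with limma, a linear model that borrows the spread between mice across genes, in 1 fit of all 14 libraries over the 11354 genes whose mean reached 1 FPKM. Days 100 and 200 were joined into a group of 2. A gene was called when its p-value, adjusted over all tested genes by Benjamini-Hochberg, was under 0.05. The labels call the replicates separate mice.

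Some libraries stood apart in ways that the groups do not describe. Day 0 replicate B, day 21 replicate C, day 45 replicate C and knockout replicate C carried transcripts of Y-linked genes (Ddx3y, Eif2s3y, Kdm5d and Uty, 51.1 to 66.8 FPKM in sum) and Xist at 0.133 FPKM or less. The other 10 libraries carried Xist at 12.6 to 71.6 FPKM and Y-linked transcripts at 0.061 FPKM or less. Each group of 3 thus held 1 mouse of the former kind, and days 100 and 200 held none. Values depended on transcript length to a differing degree, most in knockout replicates A and B. The median log2 difference from day 0 was 0.62 and 0.40 for transcripts under 1 kb and -0.59 and -0.30 for those over 6 kb, against -0.13 and 0.12 in knockout replicate C. Smaller trends were seen elsewhere, from 0.23 to -0.18 in day 0 replicate A and, in the other direction, from -0.30 to 0.25 in day 21 replicate B, -0.19 to 0.24 in day 21 replicate A and 0.15 to 0.48 at day 100. Since replicate C was also the knockout mouse with Y-linked transcripts, these properties cannot be told apart within the knockout. At day 0 the clock gene Dbp, chosen after its values were seen, differed between mice, with 38.5, 5.99 and 2.60 FPKM in replicates A, B and C, and it stood at 23.6 to 82.6 FPKM in all later and knockout livers.

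Markers of other cell types also moved with time after Cre. The 9 hepatocyte markers with values above 0 in every library (of 12; Alb is listed at 0 in every library, and Trf and Ahsg in some) summed to 24813 to 27429 FPKM at day 0, 21922 to 22568 at day 21, 19328 to 25060 at day 45, 13775 to 21787 at days 100 and 200, and 19145 to 28790 in the knockout. Apoa1 and Ttr made up most of these hepatocyte sums. At day 21 Apoa1 stood at 6737 to 8212 FPKM, against 11396 to 13489 at day 0. Ttr stood at 8984 to 9989 FPKM at day 21, against 7879 to 9742 at day 0. The 6 cholangiocyte markers summed to 46.1 to 59.2 FPKM at day 0, 137 to 203 at day 21, 405 to 1331 at day 45, 1921 to 2921 at days 100 and 200, and 552 to 795 in the knockout. Spp1 made up most of these sums, with 40.9 to 54.6 FPKM at day 0 and 129 to 195 at day 21. The median log2 fold change of the 5 tested cholangiocyte markers was 0.21 at day 21, 2.17 at day 45, 2.78 at days 100 and 200 and 2.43 in the knockout. Macrophage markers (7 genes) went from 225 to 408 FPKM at day 0 to 573 to 757 at day 21, 799 to 897 at day 45, 832 to 1019 at days 100 and 200, and 287 to 803 in the knockout. Stellate and fibroblast markers (6 genes) went from 130 to 179 FPKM to 262 to 281, 342 to 537, 495 to 504 and 169 to 275 in the same order. Lymphocyte markers (6 genes) summed to 2.55 to 6.41 FPKM at day 0 and 6.02 to 26.2 in the other groups, and endothelial markers (5 genes) to 21.7 to 50.3 FPKM at day 0, 54.8 to 77.2 after Cre and 28.8 to 37.7 in the knockout, where 1 of them was called lower. Of 5 enterocyte markers, the 2 above 0 in every library (Slc10a2 and Vil1) summed to 5.502 to 13.2 FPKM at day 0, 7.35 to 10.4 at day 21, 10.4 to 15.8 at day 45, 26.9 to 32.8 at days 100 and 200 and 27.5 to 35.3 in the knockout. Vil1 stood at 16.7 to 34.4 FPKM in the knockout and at 0.156 to 0.352 at day 0, while Cdx2, Fabp6 and Fgf15 were at 0.245 FPKM or less in every library. In bulk liver, fewer hepatocytes and less RNA per hepatocyte cannot be told apart. None of the 9 hepatocyte markers was called lower at days 21 and 45 and 1 was at days 100 and 200 and in the knockout. Of 5 tested cholangiocyte markers 2 were higher at day 21 and 5 from day 45 on and in the knockout, and of 7 macrophage markers 2, 7, 4 and 3 were higher at day 21, at day 45, at days 100 and 200 and in the knockout. Over all tested genes, 6.2%, 23.7%, 28.4% and 19.3% were called higher in that order, and 1.42%, 2.99%, 3.21% and 14.5% lower. In the same order, 1, 6, 6 and 4 of 6 stellate and fibroblast markers, 4, 5, 5 and 2 of 5 lymphocyte markers, and 2, 2, 2 and 0 of 5 endothelial markers were higher. The part of these changes in the results was not tested. Fits with every library centred on the 9 hepatocyte genes are given beside the calls of the 10 genes.

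Of the 10 genes, none was called at day 21, 3 fell by day 45, 4 were lower at days 100 and 200 and 5 were lower in the knockout, and none was called higher in any of these comparisons. At day 21, 0 of 10 passed the test in either direction (1 had an unadjusted p under 0.05), where 1.42% of all tested genes were called lower and 6.2% higher. At day 45, Slc10a1, Baat and Cyp27a1 fell, 3 of 10, where 2.99% of all genes were called lower and 23.7% higher. At days 100 and 200, Slc10a1, Cyp27a1, Cyp8b1 and Abcb11 were lower, 4 of 10, beside a background of 3.21% lower and 28.4% higher. In the knockout, Abcb11, Baat, Slc10a1, Nr1h4 and Cyp27a1 were lower, 5 of 10, beside 14.5% lower and 19.3% higher. The median log2 fold change of the 10 genes was -0.38 at day 21, -0.60 at day 45, -0.83 at days 100 and 200 and -0.96 in the knockout, while that of all tested genes was 0.06, 0.20, 0.31 and 0.02. These 4 comparisons share the 3 day 0 mice. With day 0 replicate A as the only control, the day 0 mouse with the highest Dbp, 0 of 10 were called at day 45, 2 at days 100 and 200 and 0 in the knockout. The fold changes of Slc10a1 and Baat at day 45 were then -1.60 and -1.05, as large as with 3 controls, and the test had a single control to rest on. Those of Cyp8b1 and Abcb11 at days 100 and 200 were smaller, at -0.96 and -0.65 against -1.52 and -0.91 with 3 controls. Without knockout replicate C, 7 of 10 were called, where 3487 of all 11354 genes were called lower and 3601 higher. With replicate C as the only knockout mouse, the calls were lost. The log2 fold changes of the 5 genes then ranged from -1.03 (Abcb11) to -0.04 (Nr1h4), against -1.65 to -0.82 with 3 knockout mice. Without the day 100 mouse, 0 of 10 were called in the group of the day 200 mouse. Without the 4 libraries with Y-linked transcripts, 1 was called higher at day 21 (Abcc2), and 4, 5 and 7 were called lower in the other 3 comparisons. Of all 11354 genes, 481 were then called higher at day 21, and 538, 645 and 3273 lower in the other 3. A scaling of each library to its median moved the calls over all genes from 339 lower and 2688 higher to 795 and 1644 at day 45, and from 365 and 3227 to 993 and 1785 at days 100 and 200, and gave 4 and 5 of the 10 genes, all lower.

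**Figure D1:**
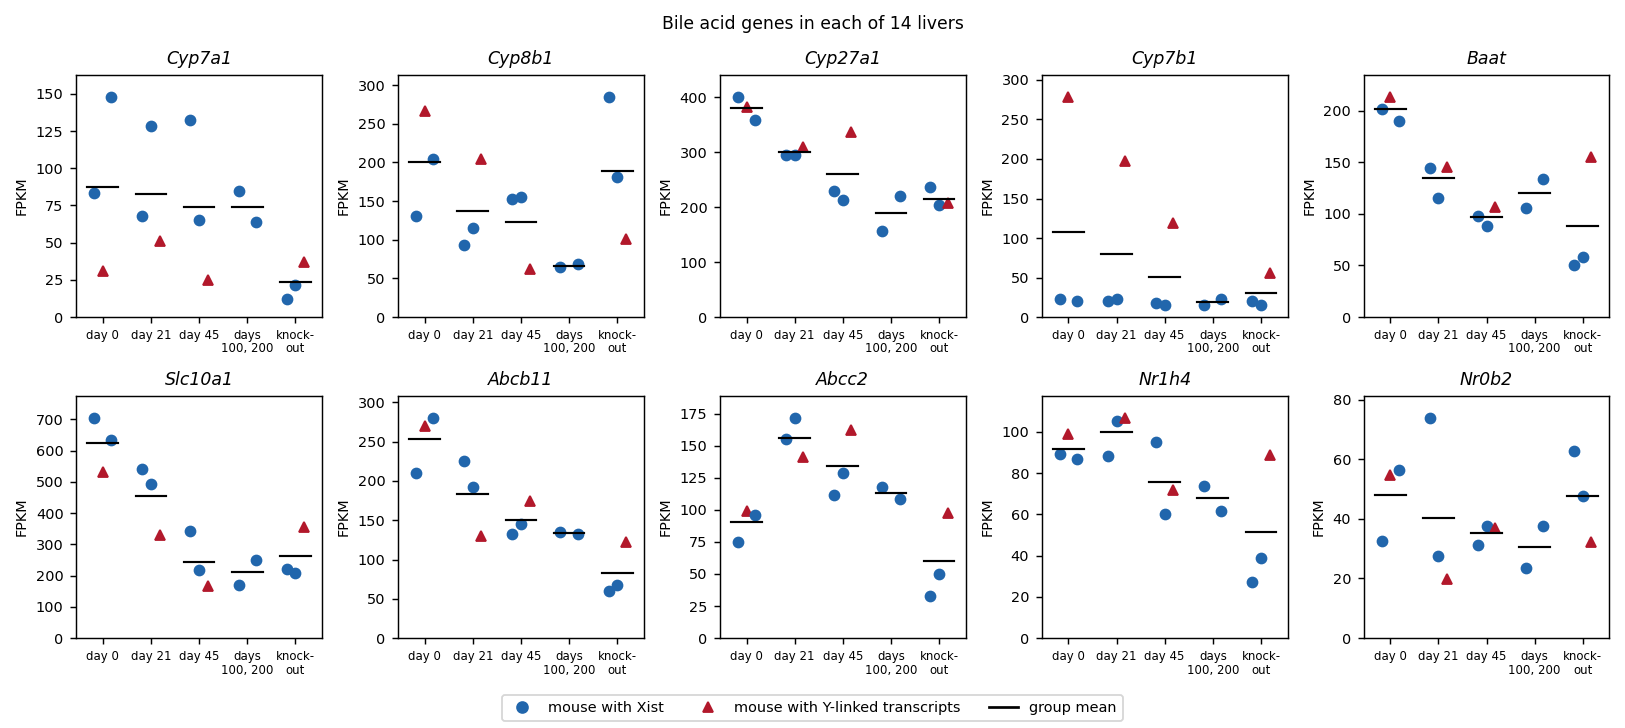
FPKM of the 10 genes in each of 14 livers by group (horizontal axis), with a panel and a linear vertical axis from 0 for each gene. Circles are mice with Xist, triangles mice with Y-linked transcripts and bars group means. Slc10a1 lay at 532 to 705 FPKM at day 0 and at 168 to 342 FPKM at day 45, and the triangles of Cyp7b1 (55.2 to 279 FPKM) lay above every circle (14.7 to 22.6 FPKM).

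Slc10a1 (NTCP), the sodium-dependent carrier that takes conjugated bile acids up from blood, fell by day 45 and was called lower at days 100 and 200 and in the knockout. In replicates A, B and C it stood at 705, 532 and 633 FPKM at day 0, at 542, 492 and 331 at day 21 and at 342, 217 and 168 at day 45. It was 171 FPKM at day 100 and 250.1 at day 200, and 221, 207 and 356 in the knockout. Every mouse at day 45, at days 100 and 200 and in the knockout was below all 3 day 0 mice, and at day 21 the groups overlapped. At day 45 the mean fell by 61.1%, from 623 ± 87.2 (SD, n = 3) to 242 ± 89.9 FPKM (n = 3), with a log2 fold change of -1.41 ± 0.30 (SE, limma adjusted p = 0.00467). At days 100 and 200 the log2 fold change was -1.58 ± 0.34 (adjusted p = 0.00361), and in the knockout -1.28 ± 0.30 (adjusted p = 0.00835). With libraries centred on hepatocyte genes these values were -1.23, -1.07 and -1.06, with adjusted p = 0.00952, 0.0179 and 0.0221. The call of days 100 and 200 was lost without the day 100 mouse (-1.30, adjusted p = 0.0629). The knockout call was lost with knockout replicate C as the only knockout mouse (-0.80, adjusted p = 0.268).

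Cyp27a1, the mitochondrial sterol 27-hydroxylase, was called lower from day 45 on and in the knockout, with the smallest standard error of the 10 genes. Its values were 401, 383 and 358 FPKM at day 0, 295, 294 and 310.1 at day 21, and 229, 213 and 337 at day 45. They were 156 FPKM at day 100, 221 at day 200, and 236, 203 and 207 in the knockout. In each of the 4 later groups all mice were below the 3 day 0 mice. The mean went from 381 ± 21.4 FPKM to 299.7 ± 8.98 at day 21 (log2 fold change -0.34 ± 0.19, adjusted p = 0.334) and to 259.8 ± 67.6 at day 45 (-0.58 ± 0.19, adjusted p = 0.0403). At days 100 and 200 it was lower by -1.03 ± 0.21 on the log2 scale (adjusted p = 0.00306), and in the knockout by -0.82 ± 0.19 (adjusted p = 0.00811). Centred on hepatocyte genes, the last 2 were -0.53 (adjusted p = 0.0386) and -0.60 (adjusted p = 0.0264), while day 45 was no longer called (-0.39, adjusted p = 0.132). The day 45 call was also lost without day 0 replicate A, B or C or day 45 replicate A or B (adjusted p = 0.0696 to 0.178), with only the 2 groups compared in the fit (0.0593) and with the replicate letter as a block (0.0526), and that of days 100 and 200 without the day 100 mouse (-0.78, adjusted p = 0.0634). Its 3 knockout mice lay close together, and replicate C alone gave -0.87 (adjusted p = 0.0828).

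Baat, the enzyme that conjugates bile acids with taurine or glycine, was at its lowest in the floxed mice at day 45. It stood at 202, 214 and 190.4 FPKM at day 0, at 145, 115 and 146 at day 21 and at 97.6, 87.8 and 106 at day 45. At days 100 and 200 it had 106 and 134 FPKM, and in the knockout 49.98, 58.4 and 155. All mice of the 4 later groups were below the day 0 mice, and the day 45 mice were also all below those of day 21. The day 45 mean was 97.3 ± 9.35 FPKM against 202 ± 11.6 at day 0, a log2 fold change of -1.05 ± 0.32 (adjusted p = 0.03). The knockout differed by -1.38 ± 0.32 (adjusted p = 0.00835), and days 100 and 200 by -0.76 ± 0.36 (adjusted p = 0.134). Leaving out any 1 of the 6 mice compared ended the day 45 call (adjusted p = 0.055 to 0.107), while a fit of these 6 mice alone gave an adjusted p of 0.00304. The same kind of fit ended the knockout call (adjusted p = 0.0774). Centred on hepatocyte genes, day 45 gave -0.86 (adjusted p = 0.0571) and the knockout -1.16 (adjusted p = 0.0153). In the knockout, replicates A and B were far below replicate C, which alone gave -0.38 (adjusted p = 0.29).

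Abcb11, the pump that carries bile salts into the canaliculus, was called lower at the late times and in the knockout. Its values were 209.9, 269.9 and 281 FPKM at day 0, 226, 193 and 130.2 at day 21, and 132, 146 and 174 at day 45. Days 100 and 200 had 135 and 132 FPKM, and the knockout 60.0, 67.5 and 123. All mice from day 45 on and in the knockout were below the day 0 mice. The log2 fold change was -0.75 ± 0.27 at day 45 (adjusted p = 0.0588), -0.91 ± 0.30 at days 100 and 200 (adjusted p = 0.0366) and -1.65 ± 0.27 in the knockout (adjusted p = 0.00132). The late call was lost without day 0 replicate B or C, or without the day 100 or the day 200 mouse (adjusted p = 0.0912, 0.0975, 0.161 and 0.131), with libraries centred on hepatocyte genes (-0.40, adjusted p = 0.263) and with Y-linked transcripts as a covariate (adjusted p = 0.0533). The knockout call was kept under the hepatocyte centring (-1.43, adjusted p = 0.00253), with adjustment for transcript length (-1.54, adjusted p = 0.000365) and without any 1 mouse, and was lost with replicate C as the only knockout mouse (-1.03, adjusted p = 0.0658).

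Abcc2 (MRP2), the second canalicular exporter, had a higher mean than day 0 in the floxed mice after Cre and a lower one in the knockout. It stood at 75.03, 99.4 and 96.1 FPKM at day 0, at 155, 172 and 141 at day 21 and at 111, 128 and 162 at day 45. Days 100 and 200 had 118 and 108 FPKM, and the knockout 33.1, 49.9 and 97.2. All mice of days 21, 45, 100 and 200 were above the day 0 mice, and the 3 knockout mice overlapped with day 0. None of these differences passed the test: the log2 fold change was 0.79 ± 0.30 at day 21 (adjusted p = 0.143), 0.56 ± 0.30 at day 45 (adjusted p = 0.206), 0.33 ± 0.34 at days 100 and 200 (adjusted p = 0.502) and -0.71 ± 0.30 in the knockout (adjusted p = 0.0849). The sign turned at days 100 and 200 with libraries centred on their median (-0.0086) and with adjustment for transcript length (-0.077). Among the mice with Xist alone the day 21 difference was 0.94 (adjusted p = 0.0369). Without knockout replicate C, the knockout difference was -1.12 (adjusted p = 0.000662). Abcc2 has an annotated transcript of 5238 bases and Abcb11 one of 5025, and for transcripts of 4 to 6 kb the median log2 difference from day 0 was -0.34 in knockout replicate A, -0.11 in B and 0.14 in C, and 0.04 to 0.47 in the mice after Cre. Adjusted for length, the knockout difference of Abcc2 was -0.58 (adjusted p = 0.0545).

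Cyp7a1, the 7α-hydroxylase that controls entry into the classic pathway, spread widely within groups. Its values were 83.1, 30.8 and 148 FPKM at day 0, 67.8, 129 and 51.4 at day 21, and 133, 65.0 and 25.0 at day 45. They were 84.6 FPKM at day 100, 63.6 at day 200, and 12.4, 21.6 and 37.0 in the knockout. The lowest mouse at days 0, 21 and 45 was each time the mouse with Y-linked transcripts, whereas in the knockout that mouse was the highest. The 95% interval of the log2 fold change was -1.32 to 1.47 at day 21, -1.66 to 1.13 at day 45 and -1.54 to 1.57 at days 100 and 200. The knockout differed by -1.71 ± 0.64 (adjusted p = 0.0567), and was called lower without day 0 replicate B (-2.31, adjusted p = 0.0289), without knockout replicate C (-2.08, adjusted p = 0.0215) and among the mice with Xist alone (-2.69, adjusted p = 0.000861). Cyp7a1 is known to follow the daily rhythm in liver, and the unequal Dbp of the day 0 mice is given above; with day 0 replicate A as the only control the knockout difference was -1.90 (adjusted p = 0.182).

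Cyp8b1, the sterol 12α-hydroxylase, was called lower at days 100 and 200 and in no other group. It stood at 130.5, 266 and 205 FPKM at day 0, at 93.1, 115 and 205 at day 21 and at 153, 155 and 62.0 at day 45. Days 100 and 200 had 64.3 and 68.7 FPKM, both below every day 0 mouse, and the knockout had 285, 182 and 101. The log2 fold change was -0.56 ± 0.45 at day 21 (adjusted p = 0.532), -0.75 ± 0.45 at day 45 (adjusted p = 0.253), -1.52 ± 0.50 at days 100 and 200 (adjusted p = 0.0346) and -0.15 ± 0.45 in the knockout (adjusted p = 0.812). The late call was lost without day 0 replicate B or C or either late mouse (adjusted p = 0.109, 0.0782, 0.176 and 0.11), and with the hepatocyte centring (-1.02, adjusted p = 0.102).

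Cyp7b1, the oxysterol 7α-hydroxylase of the alternative pathway, followed the Y-linked transcripts. In the 4 libraries with those transcripts it stood at 279 FPKM at day 0, 198 at day 21, 119 at day 45 and 55.2 in the knockout. In the other 10 libraries it ranged from 14.7 to 22.6 FPKM over all groups. Cyp7b1 is known to be higher in male than in female mouse liver. The fold changes of the whole groups therefore had wide intervals, from -3.03 to 1.78 at day 45 and from -3.32 to 1.48 in the knockout (log2), and no comparison was called. Among the mice with Xist alone the log2 fold change was 0.04 at day 21 (adjusted p = 0.928), -0.32 at day 45 (adjusted p = 0.285), -0.20 at days 100 and 200 (adjusted p = 0.478) and -0.22 in the knockout (adjusted p = 0.401). The decreasing values of the 4 mice with Y-linked transcripts rest on 1 mouse per group.

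Of the regulators, the bile acid receptor gene Nr1h4 was called lower in the knockout and Nr0b2 in no group. Nr1h4 stood at 89.3, 99.0 and 86.8 FPKM at day 0, at 88.2, 105 and 107 at day 21 and at 94.97, 60.4 and 71.9 at day 45. Days 100 and 200 had 73.8 and 61.9 FPKM, and the knockout 27.2, 38.6 and 88.9. Replicates A and B of the knockout were below all 11 floxed mice, while replicate C lay within the day 0 range. The knockout log2 fold change was -0.99 ± 0.33 (adjusted p = 0.0357), and replicate C alone gave -0.04 (adjusted p = 0.94). The call was lost without day 0 replicate A, B or C or knockout replicate A or B (adjusted p = 0.0706, 0.101, 0.0713, 0.156 and 0.13) and with the hepatocyte centring (-0.77, adjusted p = 0.123). It was also lost without a filter on low values, with only the 2 groups compared and with the replicate letter as a block (adjusted p = 0.0544, 0.148 and 0.0589). Nr0b2, the repressor that Nr1h4 induces, had 32.4, 54.8 and 56.3 FPKM at day 0, 73.9, 27.7 and 19.7 at day 21, 31.2, 37.7 and 36.9 at day 45, 23.5 and 37.7 at days 100 and 200, and 62.8, 47.8 and 32.2 in the knockout. Its groups overlapped throughout, and the 95% interval of the log2 fold change was -1.29 to 0.50 at day 45 and -0.91 to 0.88 in the knockout.

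**Figure D2:**
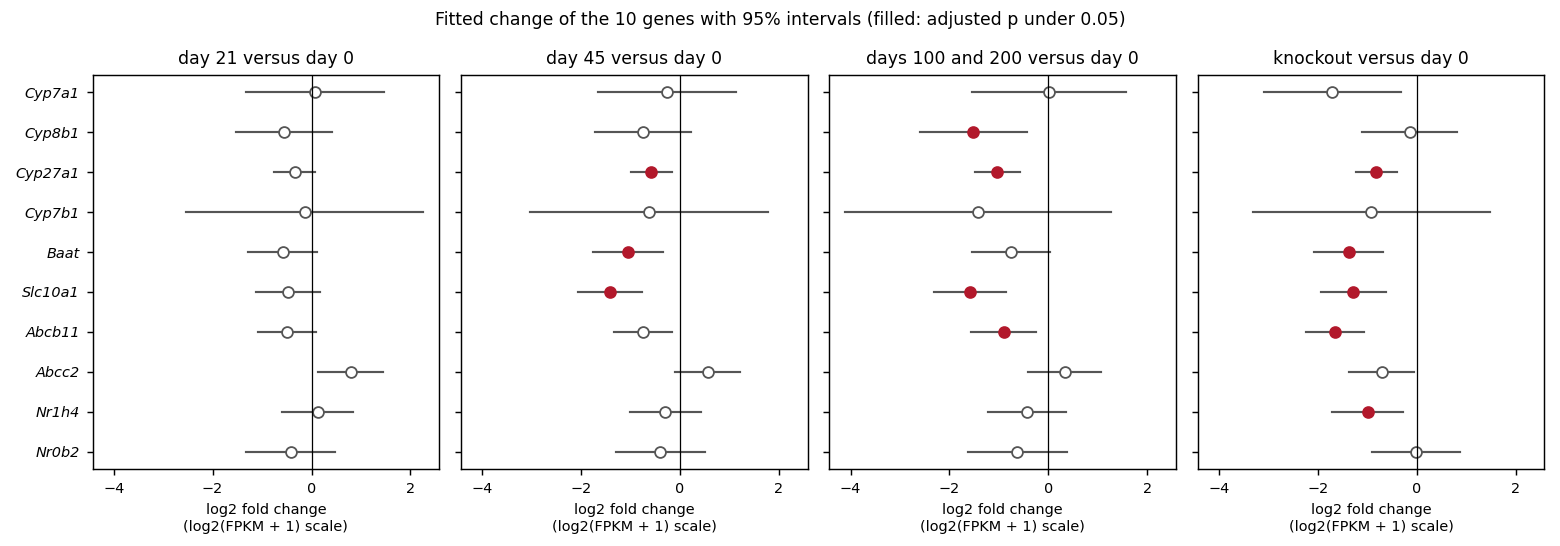
Log2 fold change of the 10 genes (rows) in each comparison with day 0 (panels), on the log2(FPKM + 1) scale. Bars are 95% intervals from limma and filled points passed an adjusted p of 0.05. Filled points lie left of 0 throughout, and the interval of Cyp7b1 is the widest in each panel.

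Few of the 10 genes were called between the later groups themselves. From day 21 to day 45, 0 of the 10 genes were called (by limma, where 0% of all genes were called lower and 0.273% higher), and 1 had an unadjusted p under 0.05. That gene was Slc10a1, with a log2 fold change of -0.94 ± 0.30 (adjusted p = 0.161). Between day 45 and days 100 and 200, 0 were called, and 0 had an unadjusted p under 0.05, where 0.0264% of all genes were called lower and 0.194% higher. Between the knockout and day 45, 1 of 10 was called lower (8.23% of all genes lower, 1.21% higher). The gene was Abcc2, at 60.1 ± 33.2 FPKM in the knockout and 134 ± 25.9 at day 45 (log2 fold change -1.27 ± 0.30, adjusted p = 0.0288). Its 3 knockout mice were all below the 3 day 45 mice. The call was lost without day 45 replicate B or C or knockout replicate A or B (adjusted p = 0.0859, 0.0918, 0.105 and 0.103), with libraries centred on their median or on hepatocyte genes (adjusted p = 0.0664 and 0.0605) and with adjustment for transcript length (-0.85, adjusted p = 0.0545). Abcb11 differed by -0.91 ± 0.27 (adjusted p = 0.0523) and by -0.50 with the length adjustment (adjusted p = 0.153).

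**Figure D3:**
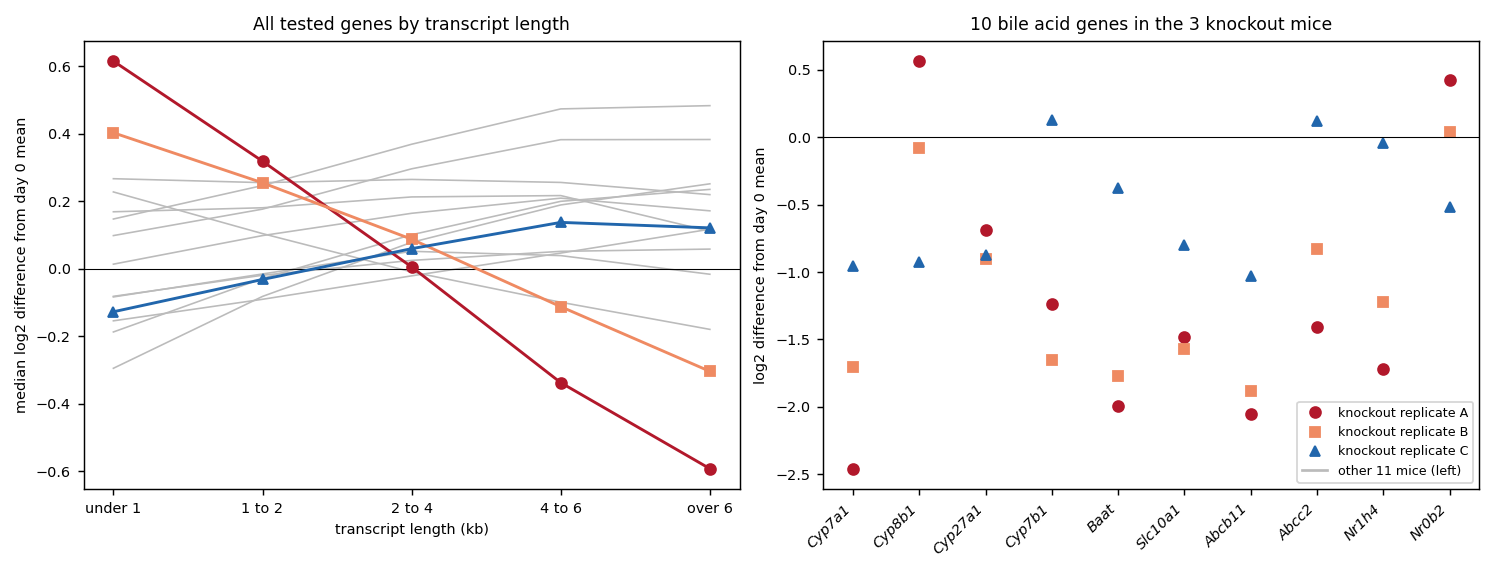
Left, median log2 difference from the day 0 mean of all tested genes, binned by transcript length in kb, with 1 line per mouse. Right, log2 difference from the day 0 mean of the 10 genes in each knockout mouse. Replicates A and B fall with length from 0.62 and 0.40 to -0.59 and -0.30, and Cyp27a1 lies close together in all 3 mice (-0.90 to -0.69) while Baat spans -1.99 to -0.38.

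The remaining genes of the pathway were taken from a list of 45, of which 41 passed the filter on low values. At day 45, 5 of the 41 were called lower and 4 higher, and at days 100 and 200 8 were lower and 4 higher, beside the backgrounds given above. In the knockout 12 were lower and 2 higher, and at day 21 the only call was 1 higher. The median log2 fold change of the 41 was 0.013 at day 21, -0.055 at day 45, -0.12 at days 100 and 200 and -0.33 in the knockout. By role, the calls were unequal. Among 13 other synthesis genes, 4 were lower and 1 higher at day 45, 5 lower at days 100 and 200, and 6 lower and 1 higher in the knockout. Of 5 uptake genes, 1, 2 and 4 were lower in the same order and 1, 0 and 0 higher. Of 9 export genes, 1, 3 and 1 were higher and 0, 1 and 2 lower. Among 14 regulators (Hnf4a, Foxa2, Rxra and other transcription factors and receptors), the only called gene was Mafg (named after its values were seen), a small Maf protein, higher at day 45 and at days 100 and 200.

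The uptake carrier Slco1a1, a sodium-independent transporter of organic anions, had the largest difference of the list. It stood at 39.8, 188 and 70.2 FPKM at day 0, at 37.3, 52.4 and 104 at day 21 and at 9.64, 2.47 and 24.9 at day 45. It was at 0.583 and 0.352 FPKM at days 100 and 200, and in the knockout at 0.104, 0.186 and 10.7. In each group of 3 the mouse with Y-linked transcripts was the highest. The log2 fold change was -3.06 ± 0.91 at day 45 (adjusted p = 0.0261), -5.81 ± 1.02 at days 100 and 200 (adjusted p = 0.00116) and -5.05 ± 0.91 in the knockout (adjusted p = 0.00237). Among the mice with Xist alone these were -3.15, -5.20 and -5.56, with adjusted p = 0.00261, 0.000168 and 3.58e-05. The day 45 call was lost without day 0 replicate B or C or day 45 replicate A or B (adjusted p of at most 0.131), with a pseudocount of 0.1 (-3.24, adjusted p = 0.0781) and with day 0 replicate A as the only control (-2.05, adjusted p = 0.357). With knockout replicate C as the only knockout mouse the difference was -2.81 (adjusted p = 0.137).

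Synthesis genes named by the same rule were lower, with the exception of Por. Cyp39a1, which hydroxylates 24-hydroxycholesterol, had 25.9, 11.8 and 18.9 FPKM at day 0, 3.48 to 5.93 at day 45 and 1.00, 1.63 and 3.72 in the knockout. It was lower by -1.86 ± 0.53 at day 45 (adjusted p = 0.0204) and by -2.70 ± 0.53 in the knockout (adjusted p = 0.00354). The day 45 call was lost without day 0 replicate A or C or day 45 replicate B or C (adjusted p of at most 0.0818). Slc27a2, an acyl-CoA synthetase of peroxisomes and endoplasmic reticulum, had 737, 660.4 and 652 FPKM at day 0, 198 at day 100, 265 at day 200 and 172, 176 and 361 in the knockout. Its log2 fold change was -1.57 ± 0.36 at days 100 and 200 (adjusted p = 0.00519; 0.0727 without the day 100 mouse) and -1.62 ± 0.32 in the knockout (adjusted p = 0.00366). Abcd3, the peroxisomal transporter that passes bile acid intermediates inward, was at 234, 261 and 226 FPKM at day 0 and at 56.8, 64.1 and 151 in the knockout (-1.54 ± 0.30, adjusted p = 0.00352). With knockout replicate C as the only knockout mouse, the differences of Abcd3, Slc27a2 and Cyp39a1 were -0.66, -0.92 and -2.01 (adjusted p = 0.127, 0.176 and 0.147). Por, the electron donor of microsomal P450 enzymes, rose from 121, 51.4 and 97.7 FPKM at day 0 to 264, 225 and 225 at day 45 (1.47 ± 0.40, adjusted p = 0.0157), a call lost without day 0 replicate B (adjusted p = 0.071) and with day 0 replicate A as the only control (0.96, adjusted p = 0.278).

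Among the export genes, the share called higher was near or below that of all genes (1 of 9 at day 45, where 23.7% of all genes were higher, and 3 of 9 at days 100 and 200, where 28.4% were). Abcc4 (MRP4), which exports bile acids back to blood, stood at 0.465, 0.459 and 0.705 FPKM at day 0, at 2.06, 4.38 and 2.86 at day 45, and at 5.18 and 4.15 at days 100 and 200. It rose by 1.37 ± 0.19 at day 45 (adjusted p = 0.000584) and by 1.87 ± 0.21 at days 100 and 200 (adjusted p = 0.000109) on the log2 scale, which understates the fold of such low values. In the knockout it stood at 0.813, 0.960 and 0.603 FPKM, a log2 fold change of 0.21 ± 0.19 (adjusted p = 0.377). Ostb, a subunit of the basolateral exporter OSTα-OSTβ whose other subunit, Osta, was listed at 0.016 FPKM or less in every library, had 1.64, 0.707 and 0.581 FPKM at day 0 and 8.55 and 5.87 at days 100 and 200 (2.07 ± 0.37, adjusted p = 0.00119), and it was also higher in the knockout, at 3.96, 5.04 and 3.55 FPKM (1.42 ± 0.33, adjusted p = 0.00793). Abcb1a, a P-glycoprotein, had 1.59, 0.432 and 1.51 FPKM at day 0 and 4.48 and 4.34 at days 100 and 200 (1.36 ± 0.27, adjusted p = 0.00259). In the knockout Abcb1a stood at 1.24, 1.42 and 1.57 FPKM, within the range of day 0 (0.20 ± 0.25, adjusted p = 0.543). Cholangiocytes also express several of these exporters, and their marker sum is given above; the part of other cell types in these rises was not tested.

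Ephx1, an epoxide hydrolase that has also been assigned to bile acid uptake, was the only gene of the list called at day 21. It stood at 180.5, 249 and 172 FPKM at day 0, at 417, 428 and 585 at day 21 and at 484, 479.2 and 818 at day 45. The log2 fold change was 1.25 ± 0.26 at day 21 (adjusted p = 0.0151) and 1.53 ± 0.26 at day 45 (adjusted p = 0.00167), and at day 21 the call was lost without day 0 replicate A or C or day 21 replicate C (adjusted p of at most 0.0756) and with day 0 replicate A as the only control (adjusted p = 0.139). Ephx1 had 319.6 and 255 FPKM at days 100 and 200 and 348, 207 and 248 in the knockout, with no call in either (0.53 ± 0.30 and 0.40 ± 0.26, adjusted p = 0.204 and 0.245). The knockout added another uptake gene. In its livers the organic anion carrier Slco1a4 was at 5.41, 4.90 and 5.17 FPKM, against 46.6, 9.42 and 33.8 at day 0 (-2.07 ± 0.58, adjusted p = 0.0181). The call was lost without day 0 replicate A or C or knockout replicate A or B (adjusted p of at most 0.0667), with only the 2 groups compared (0.0533) and with knockout replicate C alone (0.202). With libraries centred on hepatocyte genes, the calls against day 0 of the pathway genes named by rule were kept, with Slc27a2 at days 100 and 200 at -1.07 (adjusted p = 0.0246).

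**Figure D4:**
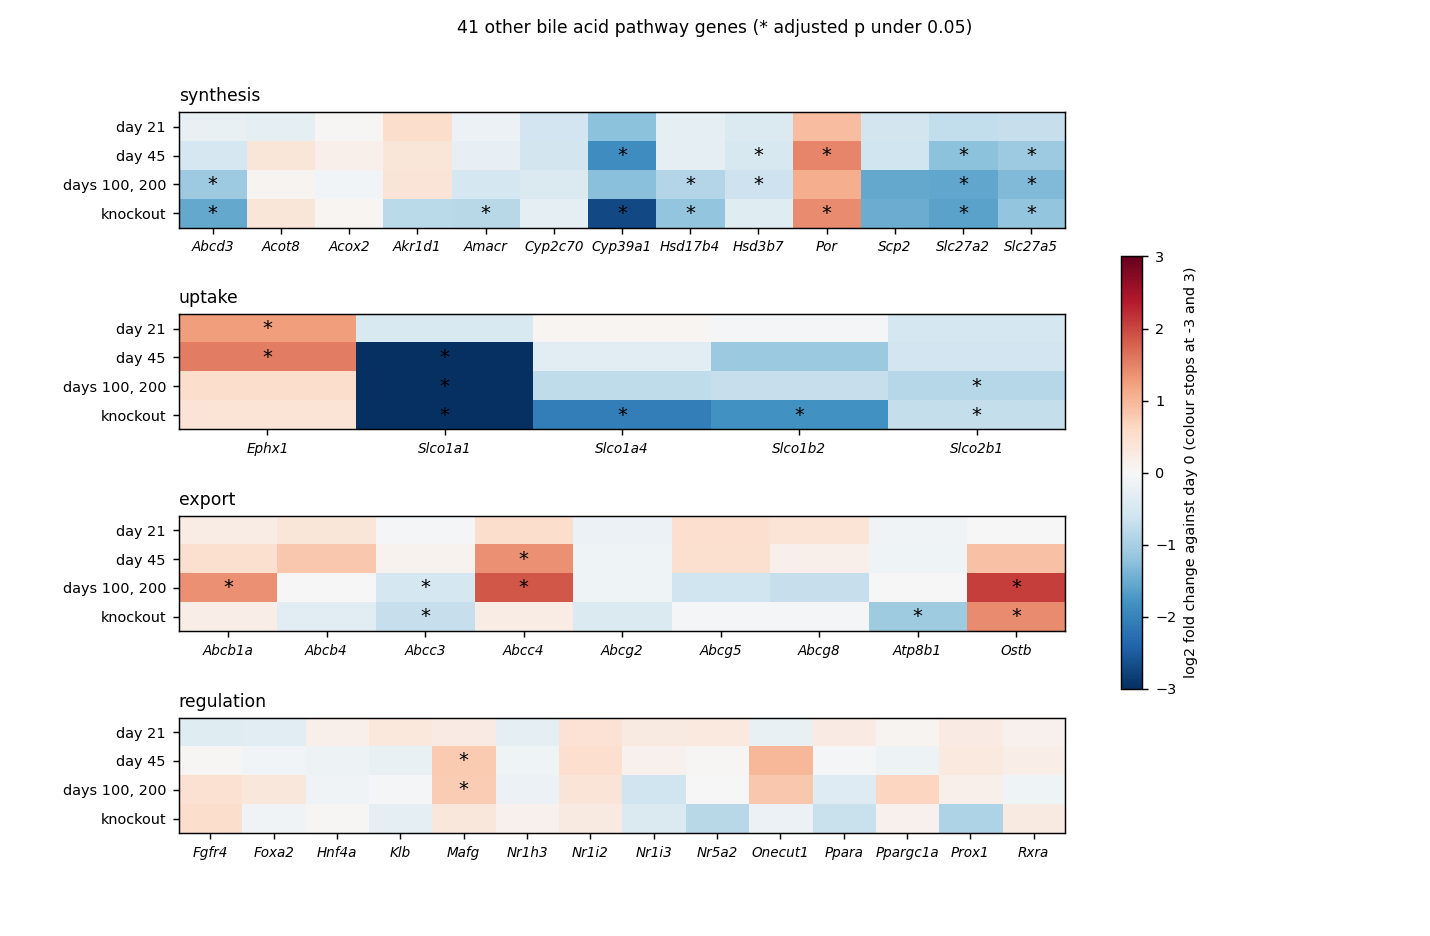
Log2 fold change against day 0 of the 41 other pathway genes (columns, by role) in 4 comparisons (rows), with colour stopping at -3 and 3. Asterisks mark an adjusted p under 0.05. Slco1a1 is at or beyond the end of the blue scale in 3 rows (-3.06, -5.81 and -5.05), and among the 14 regulators Mafg alone carries asterisks.

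The 10 genes did not vary as a single block across the 14 livers. Over the 45 pairs, Pearson's r of log2(FPKM + 1) was above 0 for 34 pairs, with a median of 0.31. The highest values joined Baat with Abcb11 (0.86) and with Nr1h4 (0.82), and the lowest joined Cyp8b1 with Abcc2 (-0.54). Among all tested genes, the closest to Slc10a1 were Pbld (0.95), Mgll (0.93) and Sdr42e1 (0.93), and the closest to Cyp27a1 were Fn3k (0.94), Acaa2 (0.92) and Cisd1 (0.91). The closest to Cyp7b1 were the Y-linked Ddx3y (0.95), Cyp4a12b (0.94) and Mcm10 (0.94). Cyp7a1 was closest to Utp14b (0.90), Hsd17b7 (0.90) and Pdlim5 (0.89), and Cyp8b1 to 2410001C21Rik (0.79), Creb3l3 (0.79) and Gpd1 (0.78). Baat was closest to AI182371 (0.96), Uqcrc2 (0.96) and Cdadc1 (0.96), Abcb11 to Ptprd (0.98), Cyb5b (0.96) and Gldc (0.96), Abcc2 to Bach1 (0.97), Rbl2 (0.96) and Usp25 (0.96), Nr1h4 to Plekha8 (0.97), Chuk (0.97) and Mtfr1 (0.96), and Nr0b2 to Sardh (0.89), Pdk2 (0.85) and Ivd (0.84). All of these values come from the same 14 libraries, which share groups, the length trend of knockout replicates A and B and the presence of Y-linked transcripts, and they are descriptions of these livers.

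In the mm9 genome of the table, Slc10a1 (ENSMUSG00000021135) lies at chr12:82054172-82069066 on the minus strand, with 5 exons in its longest GENCODE transcript, and Cyp27a1 (ENSMUSG00000026170) at chr1:74760148-74784464 on the plus strand, with 9 exons. Baat (ENSMUSG00000039653, chr4:49502290-49519430) and Abcb11 (ENSMUSG00000027048, chr2:69076339-69180673) are on the minus strand with 4 and 29 exons. Cyp8b1 (ENSMUSG00000050445, chr9:121823474-121825423, minus strand) has a single exon. FPKM are sums over the whole gene and were not resolved by exon.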

How the data were processed

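Poly-A RNA-seq of 14 mouse livers was used, with 11 small RNA libraries matched by label to the floxed livers for the share of miR-122. The authors aligned paired reads to mm9 with TopHat and deposited FPKM from Cufflinks 2.2.1, scaled to the upper quartile. Fragment numbers are not kept in FPKM, and count models were not used. The number of fragments to which each library was scaled was estimated from the steps between low values. The deposited small RNA values are RPM after alignment to microRNAs with Bowtie 0.12.7, and carry an added 1 that was removed. For 224 symbols listed on several of the 22308 rows, the rows were added up, which left 21888 symbols.

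limma 3.58.1 (R 4.3.3) was run on log2(FPKM + 1) with group means for 5 groups, 7 contrasts and eBayes with trend, and tested on simulated data. Genes needed a mean of at least 1 FPKM. Other steps used pandas 2.3.3, numpy 2.4.6 and matplotlib 3.10.9 under Python 3.11.15. The members and lists were chosen with earlier results of these data known. Named were all 10 members and, of the pathway list, up to 5 genes per comparison with day 0 with the largest called change whose mice all lay on 1 side of the 3 day 0 mice, and the 3 genes most correlated with each member. Markers are given as counts and summed FPKM. Alternatives were a pseudocount of 0.1, no filter, 2 centrings, only the groups compared, a block for replicate letters, sample weights, the highest row of a symbol and leaving out each mouse. Added after seeing the data were Y-linked transcripts as a covariate, mice with Xist alone, adjustment for transcript length, knockout replicate C alone and day 0 replicate A alone. A lone mouse is assumed to vary like the other groups. A further gene of that pathway was left out of the list and of the analysis, and is not reported here.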

Additional observations from a re-analysis of the deposited data

Results flagged for a closer look

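Cyp7a1, Baat, Cyp7b1 and Cyp8b1 were flagged by an interaction term in limma. Their difference between knockout and day 0 was unlike in the mice with and without Y-linked transcripts. The same term flagged many genes across the whole table, so that the flag is not particular to these genes. The mice with these transcripts are 1 knockout mouse and 1 day 0 mouse, on a split chosen after seeing the data, so that the values below describe single mice and are given without p-values. For Cyp7a1 the log2 fold change was 0.26 in the mice with Y-linked transcripts and -2.69 in those without, a difference of 2.94. For Baat these were -0.46 and -1.84, a difference of 1.38. For Cyp7b1 they were -2.32 and -0.22, a difference of -2.10, and for Cyp8b1 -1.39 and 0.47, a difference of -1.86. The knockout mouse with Y-linked transcripts is replicate C, which also lacks the length trend of replicates A and B, so that these cannot be told apart.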

How the results depend on the processing

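Among the calls of single members against day 0, the sign held under every alternative tried. In values, Slc10a1 at day 45 kept its call in 17 of 18 alternatives (-1.69 to -1.18), and Nr1h4 in the knockout in 8 of 19 (-1.47 to -0.04). Genes of the 10 called at day 21 (0 as reported) were 2 with only the groups compared in the fit, 3 with sample weights and 1 among mice with Xist alone. At day 45 (3 as reported) they were 1 with libraries centred on hepatocyte genes, 5 with weights and 0 with day 0 replicate A alone. At days 100 and 200 (4) they were 2 with the hepatocyte centring and 2 with day 0 replicate A alone, and in the knockout (5) 3 with only the groups compared, 0 with knockout replicate C alone and 0 with day 0 replicate A alone. From day 21 to day 45 (0), weights gave 1. Over all genes, calls between knockout and day 45 were 1072 as reported and 1870 with the Y covariate. They were 5618 with Xist alone, 7807 with weights and 5922 without knockout replicate C. Of the 10 genes, 1 was called there as reported, 2 with the Y covariate, 5 with Xist alone and 7 with weights. Median centring, hepatocyte centring, only the groups compared and length adjustment gave 0 each. That call was lost as well with knockout replicate C alone. Leaving out 1 mouse at a time gave 0 to 0 at day 21, 1 to 2 at day 45, 0 to 4 at days 100 and 200 (0 without the day 100 mouse), 4 to 7 in the knockout (7 without replicate C), 0 to 0 for day 45 against day 21, 0 to 0 for days 100 and 200 against day 45, and 0 to 5 for knockout against day 45 (5 without knockout replicate C).

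Of the 41 other pathway genes, calls at day 21 (1) were 3 with a pseudocount of 0.1, 3 with only the groups compared, 9 with weights, 2 with the Y covariate, 2 with length adjustment and 0 with day 0 replicate A alone. At day 45 (9) they were 17 with weights and 3 with day 0 replicate A alone, and at days 100 and 200 (12) 20 with weights, 19 with Xist alone and 4 with day 0 replicate A alone. In the knockout (14) they were 6 with only the groups compared, 30 with weights, 26 with Xist alone, 2 with knockout replicate C alone and 3 with day 0 replicate A alone. Leaving out 1 mouse gave 0 to 2, 4 to 8, 5 to 9 and 9 to 23 (23 without knockout replicate C). Weights put 38.0 on knockout replicate B and 0.0269 on C, and their estimation did not converge. Calls over all 11354 genes rose as well. At day 21, at day 45, at days 100 and 200 and in the knockout they were 3157, 4804, 5881 and 8962 with weights. The fits as reported gave 865, 3027, 3592 and 3833. With Xist alone they were 4499 at days 100 and 200 and 6515 in the knockout, and 7088 there without knockout replicate C.

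Values that changed sign were not called on either side. Cyp7a1 at day 21 was -0.13 with weights, -0.25 with Xist alone, -0.068 with length adjustment and -0.12 with day 0 replicate A alone, and -0.53 to 0.59 without 1 mouse. At days 100 and 200 it was -0.32 with median centring, -0.40 with weights, -0.27 with the Y covariate, -0.59 with Xist alone, -0.38 with length adjustment and -0.18 with day 0 replicate A alone, and -0.59 to 0.53 without 1 mouse. Cyp7a1 at day 45 was -0.87 to 0.35 without 1 mouse. In the knockout, Cyp8b1 was 0.078 with the hepatocyte centring, 0.47 with Xist alone, 0.41 with day 0 replicate A alone and -0.50 to 0.24 without 1 mouse, and Nr0b2 0.21, 0.35, 0.49 and -0.27 to 0.23. Cyp7b1 at day 21 was 0.079 with weights, 0.038 with Xist alone, 1.00 with day 0 replicate A alone and -1.19 to 1.08 without 1 mouse. At day 45 it was 0.024 with weights, 0.52 with day 0 replicate A alone and -1.55 to 0.60 without 1 mouse, and in the knockout 0.13 with replicate C alone, 0.22 with day 0 replicate A alone and -1.57 to 0.30 without 1 mouse. Abcc2 at days 100 and 200 was -0.0086 with median centring and -0.077 with length adjustment, and in the knockout 0.12 with replicate C alone. Nr1h4 at days 100 and 200 was 0.070 with the hepatocyte centring, and Nr0b2 0.083 at day 21 with Xist alone, 0.084 with day 0 replicate A alone and 0.11 at day 45 with day 0 replicate A alone. The causes were not tested.

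Mice with the same replicate letter were not more alike than others. Of 18 pairs with the same letter, 8 had a correlation of their deviations over 0.1 (median 0.02, against 0.05 for 36 pairs with different letters). This check cannot exclude a pairing, because the mouse with Y-linked transcripts is B at day 0 but C in the other lettered groups. With the letter as a replicate block, members called were 0, 2 and 4 at day 21, at day 45 and in the knockout and pathway genes 2, 8 and 12, and calls over all genes 470, 2663 and 3019 against 865, 3027 and 3833. No block could be fitted for days 100 and 200, which have no letters. Median centring moved the median of all genes by about its own value (0.20 at day 45, 0.31 at days 100 and 200), and split the calls between knockout and day 45 into 186 higher and 219 lower, against 137 and 935. Calls over all genes, leave-one-out fits apart, ranged over 26 to 3157 at day 21, 806 to 4804 at day 45, 1691 to 6459 at days 100 and 200 and 434 to 8962 in the knockout, and on leaving out 1 mouse over 243 to 643, 1781 to 2741, 1626 to 3053 and 1630 to 7088. With FPKM alone, counting error per gene is unknown. The members lie far above the low values of the table, and how counting error compares with the spread between mice was not tested.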
